A study of Mus musculus with 12 samples.

Results

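A set of myeloid inhibitory receptors and relatives was described here across 12 arrays of sorted mouse liver progenitors. It holds Cd300a, Cd300lf, Cd300lb, Sirpa, Pilra, Clec12a, Siglece and Cd33, together with Ptpn6, which encodes SHP-1, the phosphatase that many of these receptors recruit. Cd300lb counts as an activating receptor in mice, and mouse Cd33 lacks the canonical inhibitory motif. The set was chosen by function and on the array values of Cd300a in both populations. The study's table of genes changed in mutant GMP-like cells lists Cd300a as lower. The values of Cd300a are therefore a description with no test, and tests are given for the other members. Of the 9 genes, 8 were found, with 12 probe sets, among the 18193 genes and 45037 probe sets of the array, and Clec12a was not analysed here. A probe set is a group of short oligonucleotides that reads 1 transcript, and for each gene the probe set that is brightest on average leads and the others serve as checks.

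Inhibitory receptors carry short tyrosine motifs, named ITIMs, in their cytoplasmic tails. When a neighbouring activating receptor fires, Src family kinases phosphorylate these motifs, and the tail then recruits phosphatases such as SHP-1 that damp the signal. Many are made as pairs with activating relatives that lack the motif and signal through adapters such as Tyrobp (DAP12). In granulocytes, monocytes and macrophages they set the threshold for phagocytosis, degranulation and cytokine release.

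Homozygous knock-in (KI) mice carried the Q202L point mutation in PU.1, the transcription factor encoded by Spi1, in the germ line and thus in every cell, and their wild-type (WT) littermates came from heterozygous parents. The groups were 3 samples each of KI ST-HSC and WT ST-HSC, short-term hematopoietic stem cells, and of KI GMP-like cells and WT GMP, granulocyte-monocyte progenitors. The records give the strain as C57Bl/6, whereas the study's reporting summary names a cross of another strain with C57. The records give the tissue as newborn liver, taken at or just before birth, where the study's text writes of fetal liver. For ST-HSC (lineage-negative, Sca-1+, c-kit+, CD150-) the records state CD48+ and the study CD48-. GMP were lineage-negative, Sca-1-, c-kit+, high for the Fc gamma receptors II and III, and CD34+, and the KI GMP-like cells were sorted with intermediate CD34. The mutant and WT cells of this gate were thus not sorted alike. Nothing in the records ties a sample to an animal or pool, so p-values measure only the spread between these samples.

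All values are log2 RMA values, the background-corrected and quantile-normalized probe set signal on a log2 scale, so that a difference of 1 is a 2-fold change. The array medians were 5.00 to 5.10 in ST-HSC and 4.70 to 4.79 in GMP, with no overlap, so the populations appear to have been normalized apart. Levels are therefore set side by side and were not tested between the populations. Tests were made of the differences between KI and WT within a population, and of how far these differences varied between the populations. Among 7 sort markers, Kit and Cd48 did not pass the test in either population. Cd34 was lower in the KI cells of both, with differences of −1.41 (adjusted p = 0.00103) in ST-HSC and −2.87 (adjusted p = 6.98e-06) in GMP. The GMP gates differed in CD34 itself, so the difference there is not independent of the sort. For GMP-like cells the study lists a Cd34 change of the same size with the opposite sign. Slamf1 (CD150), for which ST-HSC were sorted as negative, was higher in KI ST-HSC, with means of 6.53 in KI and 4.61 in WT (1.92, adjusted p = 0.00132). Fcgr3, an Fc gamma receptor, was higher there as well, at 11.11 in KI and 9.44 in WT (1.68, adjusted p = 0.00165). Flt3 was lower in KI ST-HSC, at 7.83 in KI and 10.53 in WT (−2.69, adjusted p = 0.0215). Mpo and Ctsg, markers of granulocyte progenitors, had group means of 11.80 to 13.52 in all 4 groups. The difference of Spi1 itself was 0.17 in ST-HSC (adjusted p = 0.798, limma) and 0.39 in GMP (adjusted p = 0.384). Since the allele is a point mutation, this level does not check the genotype. The RNA Xist, made by female cells, was low on all 6 KI arrays (2.98 to 3.78) and on replicate 2 of both WT groups (3.70 in ST-HSC and 3.46 in GMP), against 10.7 to 11.7 on WT replicates 1 and 3.

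Cd300a, an ITIM receptor that binds phosphatidylserine and phosphatidylethanolamine on dying cells, had the widest gap of the 8 genes by its lead probe set. In ST-HSC the lead probe set read 5.37, 4.99 and 4.91 on the KI arrays, against 9.61, 8.96 and 8.86 on the WT arrays. In GMP it read 4.12, 4.39 and 4.17 on the KI arrays, against 9.07, 9.24 and 9.24 on the WT arrays. The KI values lay near the median of all probe sets in ST-HSC and below it in GMP, and every WT value was at least 3.49 above the highest KI value of its population. The group means were 5.09 ± 0.247 in KI and 9.15 ± 0.407 in WT ST-HSC (SD, n = 3 each), a difference of −4.05 or 16.6-fold. They were 4.23 ± 0.143 in KI GMP-like cells and 9.18 ± 0.0998 in WT GMP (SD, n = 3 each), a difference of −4.96 or 31.0-fold. These values chose the gene and are given with no test. In such bulk samples fewer cells with the transcript and less of it per cell cannot be told apart. From low to high the groups ran KI GMP-like, KI ST-HSC, WT ST-HSC and WT GMP, and the WT groups, although normalized apart, differed by less than the SD of WT ST-HSC.

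The second probe set of Cd300a was dim and showed a smaller gap. It read 3.54, 3.33 and 3.29 in KI and 4.16, 4.93 and 3.55 in WT ST-HSC, a difference of −0.82. The GMP arrays gave 4.35, 4.74 and 4.18 in KI and 5.20, 5.20 and 5.85 in WT, a difference of −0.99. All KI values again lay below all WT values, although in ST-HSC the nearest pair was 3.54 in KI and 3.55 in WT. The size of the Cd300a difference thus rests on 1 probe set, and the mean of both probe sets gave −2.44 in ST-HSC and −2.97 in GMP. On that mean its gap in ST-HSC was narrower than that of Cd33 (−3.35), which has 1 probe set.

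**Figure D1:**
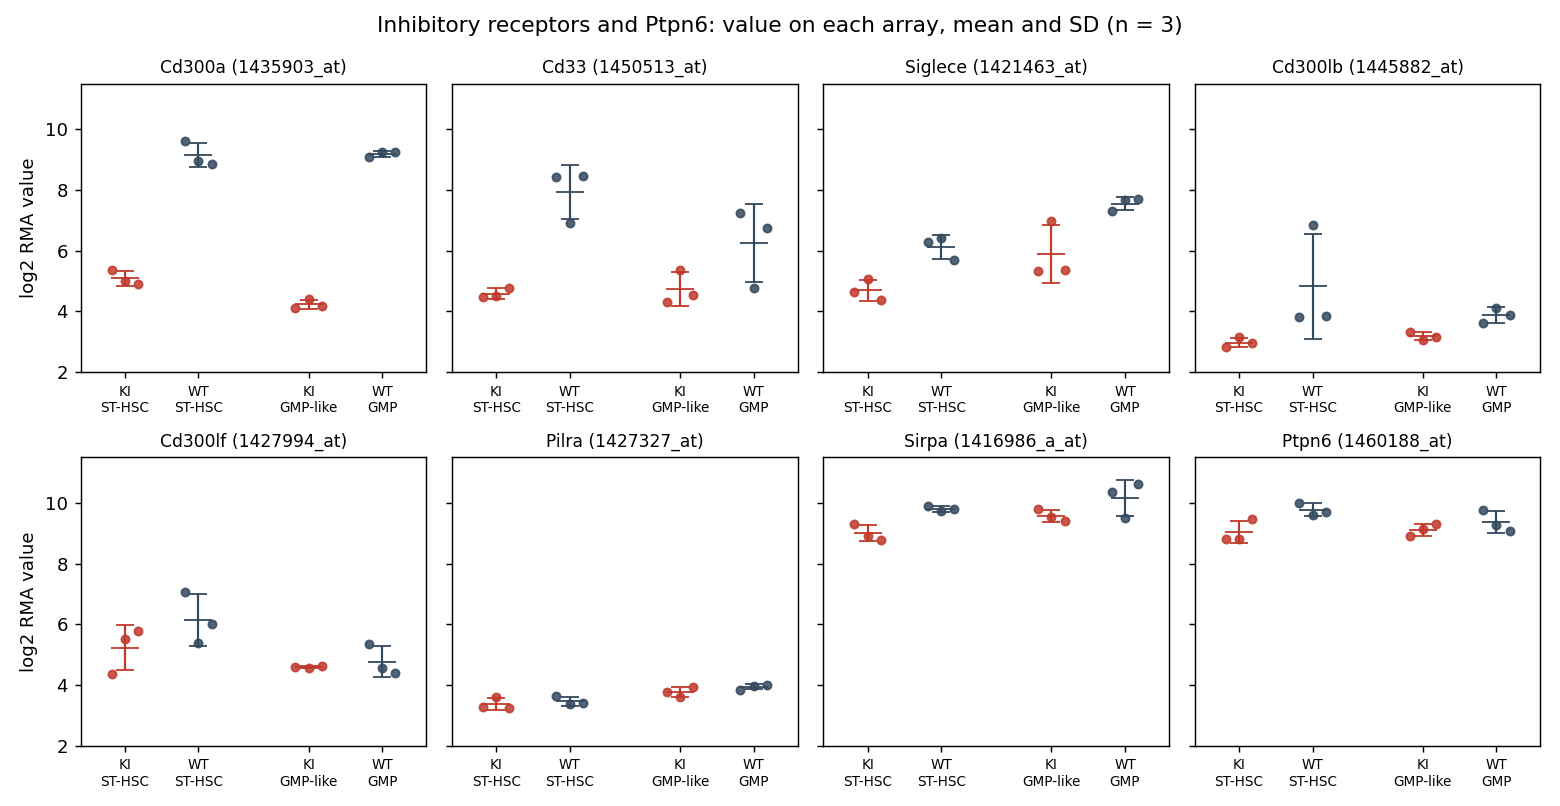
Log2 RMA value (vertical axis) of the lead probe set of each gene, with KI in red left of WT in blue, first for ST-HSC and then for GMP, and 1 point per array in replicate order, a horizontal line at the mean and bars of 1 SD (n = 3). The KI points of Cd300a sit between 4.12 and 5.37 and its WT points between 8.86 and 9.61, whereas Pilra stays between 3.25 and 4.01 in all groups.

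The bases before the transcription start of 4 members are shown because PU.1, the mutated factor, binds purine-rich sites with a GGAA core. In the study's assays the Q202L protein held on to DNA about as well as normal PU.1, but its contact with c-Jun was lost. Since c-Jun counts among the AP-1 factors, the AP-1 letters are given as well. Whether binding of PU.1 or c-Jun differed at these genes was not tested. The letters GAGGAAG on either strand were searched as a PU.1 motif in the window of 250 bases before to 50 after the start of each gene, in RefSeq sequences of the build GRCm38.p6, where 7 of the 8 genes had a window. They were found in 5 of the 7 windows (Cd300a, Cd300lf, Cd33, Pilra and Siglece), against 13.63% of all 32851 windows. A match is a description and not a binding site. The AP-1 letters TGANTCA, searched in the same way, were found in 0 of the 7 and in 7.81% of all windows. Each sequence below holds the 250 bases before the start, written 5′ to 3′ on the strand of the gene, with GAGGAAG or its reverse complement CTTCCTC in capitals. They stand for the member with the widest gap by lead probe set, the called member, the other Siglec and a Cd300 relative that did not pass the test.
Cd300a: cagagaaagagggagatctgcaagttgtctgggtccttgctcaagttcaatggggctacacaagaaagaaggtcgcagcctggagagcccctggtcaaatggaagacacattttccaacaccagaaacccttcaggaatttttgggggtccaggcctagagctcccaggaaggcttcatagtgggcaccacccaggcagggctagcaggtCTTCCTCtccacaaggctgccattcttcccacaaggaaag
Cd33: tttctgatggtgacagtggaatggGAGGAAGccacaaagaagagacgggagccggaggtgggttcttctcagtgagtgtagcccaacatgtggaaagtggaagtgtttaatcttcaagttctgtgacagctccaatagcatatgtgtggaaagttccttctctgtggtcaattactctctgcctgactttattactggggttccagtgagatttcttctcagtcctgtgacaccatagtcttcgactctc
Siglece: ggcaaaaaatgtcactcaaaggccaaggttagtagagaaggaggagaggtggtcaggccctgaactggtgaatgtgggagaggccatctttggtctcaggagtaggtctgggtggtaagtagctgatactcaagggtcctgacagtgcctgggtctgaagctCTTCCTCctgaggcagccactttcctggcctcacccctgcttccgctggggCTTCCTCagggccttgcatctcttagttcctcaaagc
Cd300lf: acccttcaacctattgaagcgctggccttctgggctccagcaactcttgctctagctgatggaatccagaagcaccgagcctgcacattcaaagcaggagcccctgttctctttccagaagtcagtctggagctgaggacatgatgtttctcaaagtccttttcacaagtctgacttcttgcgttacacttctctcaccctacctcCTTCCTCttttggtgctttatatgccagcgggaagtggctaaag
On GRCm38.p6 these stretches are chr11:114889791-114890040 (plus strand) for Cd300a, chr7:43533172-43533421 (minus strand) for Cd33, chr7:43660162-43660411 (minus strand) for Siglece and chr11:115133993-115134242 (minus strand) for Cd300lf.
In Cd300a the match began 40 bases before the start. Siglece held 2 matches, which began 88 and 37 bases before the start, and in Cd33 the only match was farther away, at 226 bases. Cd300lf held 1 match at 44 bases before the start and another at the start itself, outside the stretch shown, and Pilra held 1 at 211 bases, although neither gene passed the test in either population. The windows of Cd300lb and Ptpn6 held none.

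Cd33 and Siglece are Siglecs, lectins that bind sialic acids on the surface of cells. Human CD33 is an ITIM receptor of myeloid progenitors, whereas the mouse protein has a different tail without the canonical motif, and Siglece is an ITIM receptor of mouse neutrophils and macrophages. Of the members tested, Cd33 alone passed the threshold, and in ST-HSC alone. It read 4.46, 4.49 and 4.78 on the KI arrays and 8.42, 6.90 and 8.46 on the WT arrays. All KI values were thus close together and at least 2.13 below the WT values, of which replicate 2 was the lowest. The means were 4.58 ± 0.176 in KI and 7.92 ± 0.885 in WT ST-HSC (SD, n = 3 each), a 10.2-fold lower level in KI, and the difference of −3.35 (SE 0.604) had an adjusted p of 0.0164 by limma with Benjamini-Hochberg adjustment over all probe sets.

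In GMP, Cd33 read 4.31, 5.37 and 4.53 on the KI arrays and 7.23, 4.78 and 6.74 on the WT arrays. The groups overlapped, since WT replicate 2 lay below KI replicate 2. The difference of −1.52 (SE 0.604) did not pass the test (adjusted p = 0.272, limma). The gap between KI and WT differed between the populations by 1.83 (GMP minus ST-HSC), with a 95% confidence interval of −0.06 to 3.72 and an adjusted p of 0.657, so that an unequal response of Cd33 was not shown. In both populations the lowest WT value was that of the WT array of low Xist. Set against that array alone, the difference of Cd33 was −2.33 in ST-HSC and −0.05 in GMP. No p-value is given for it because 1 array has no spread of its own. With the Xist level as a covariate the difference in ST-HSC was −2.07 (adjusted p = 0.0222). The call in ST-HSC was lost without any 1 of KI ST-HSC replicates 1, 2 and 3 and WT ST-HSC replicates 1 and 3, with adjusted p between 0.0522 and 0.0789 and differences from −3.08 to −3.45.

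Siglece was low in KI cells of both populations with values that did not overlap, and the test was missed in both. It read 4.63, 5.07 and 4.37 in KI and 6.29, 6.42 and 5.68 in WT ST-HSC, a difference of −1.44 (SE 0.406, adjusted p = 0.121, limma). In GMP it read 5.33, 6.98 and 5.35 in KI and 7.30, 7.67 and 7.69 in WT, a difference of −1.67 (SE 0.406, adjusted p = 0.0683). KI replicate 2 stood apart from the other KI GMP-like arrays, 0.32 below the lowest WT value. Without that array the difference was −2.21 (adjusted p = 0.00395), and the adjusted p in ST-HSC became 0.0148 at an unchanged difference. Siglece passed the test in 5 of 24 alternative settings in GMP and in 1 of 24 in ST-HSC. The gaps differed by −0.23 between GMP and ST-HSC (95% confidence interval −1.50 to 1.04, adjusted p = 0.957).

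The relatives of Cd300a lie beside it in a cluster of Cd300 genes on chromosome 11. Cd300lf (CLM-1) is an ITIM receptor, whereas Cd300lb (CLM-7) has a short tail in mice and signals through DAP12, so that it counts as an activating relative. Cd300lb read 2.83, 3.14 and 2.95 in KI and 3.81, 6.83 and 3.86 in WT ST-HSC. Its KI values lay below the WT values, but the difference of −1.86 (SE 0.634, adjusted p = 0.215, limma) rested largely on WT replicate 2. Without this replicate the difference was −0.86 (adjusted p = 0.0411). Against this replicate alone, which is the WT array of low Xist, the difference was −3.86, and no p-value is given because 1 array has no spread of its own. The GMP values were 3.33, 3.07 and 3.16 in KI and 3.60, 4.12 and 3.88 in WT, a difference of −0.68 (adjusted p = 0.726). The KI values lie at or below the lower quartile of an array (3.31 to 3.63), a range in which RMA compresses differences.

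Cd300lf overlapped between the genotypes in both populations. It read 4.38, 5.52 and 5.79 in KI and 7.07, 5.38 and 6.00 in WT ST-HSC, a difference of −0.92 (95% confidence interval −1.93 to 0.08, adjusted p = 0.435). The GMP values were 4.58, 4.57 and 4.63 in KI and 5.35, 4.56 and 4.40 in WT, a difference of −0.17 (−1.18 to 0.83, adjusted p = 0.929). The 3 KI GMP-like values were nearly equal, and 2 of the 3 WT GMP values were below them. RefSeq names 12 Cd300 genes, of which 6 were measured. Cd300c2, an activating member, differed by −0.90 in ST-HSC (adjusted p = 0.127) and −0.42 in GMP (adjusted p = 0.537), with all KI values below all WT values in both. Cd300ld and Cd300lg were dim, with differences of −0.02 to −0.32 and no adjusted p under 0.68. None of these other 5 Cd300 genes passed the test.

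Sirpa, the receptor through which macrophages read CD47 on other cells, was lower in KI ST-HSC without overlap, but its difference did not pass the test. It read 9.29, 8.90 and 8.79 in KI and 9.91, 9.72 and 9.79 in WT ST-HSC, with no overlap and a difference of −0.81 (SE 0.265, adjusted p = 0.190, limma). The GMP arrays gave 9.80, 9.53 and 9.42 in KI and 10.36, 9.49 and 10.63 in WT, a difference of −0.58 (adjusted p = 0.357), and the groups overlapped at WT replicate 2. Sirpa passed the test in 1 of 24 alternative settings in each population. This was without WT GMP replicate 2, with differences of −0.81 (adjusted p = 0.0453) in ST-HSC and −0.91 (adjusted p = 0.0487) in GMP. The difference in ST-HSC did not change there, since a GMP array enters it only through the shared spread. The other probe sets showed smaller gaps. One differed by −0.53 in ST-HSC (adjusted p = 0.468) and −0.37 in GMP (adjusted p = 0.631). The differences of the other were −0.10 (adjusted p = 0.955) and 0.00 (adjusted p = 0.998).

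Pilra, an ITIM receptor paired with the activating Pilrb, was dim everywhere, with values of 3.25 to 3.61 in KI and 3.36 to 3.64 in WT ST-HSC and of 3.61 to 3.93 in KI and 3.85 to 4.01 in WT GMP. Its differences were −0.09 (95% confidence interval −0.41 to 0.23, adjusted p = 0.880) in ST-HSC and −0.17 (−0.50 to 0.15, adjusted p = 0.690) in GMP. A value near the lower quartile of the array may be background, and a change of the transcript below it would not be seen.

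Ptpn6 read at least 8.82 on every array, and its difference did not pass the test in either population. It read 8.82, 8.82 and 9.47 in KI and 10.01, 9.59 and 9.70 in WT ST-HSC, with no overlap and a difference of −0.73 (95% confidence interval −1.24 to −0.21, adjusted p = 0.181, limma). The GMP arrays gave 8.90, 9.13 and 9.30 in KI and 9.77, 9.28 and 9.08 in WT, a difference of −0.27 (−0.78 to 0.25, adjusted p = 0.701). A second probe set of Ptpn6, of a kind whose probes can also bind other transcripts, differed by −0.24 in ST-HSC (adjusted p = 0.765) and 0.11 in GMP (adjusted p = 0.910).

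**Figure D2:**
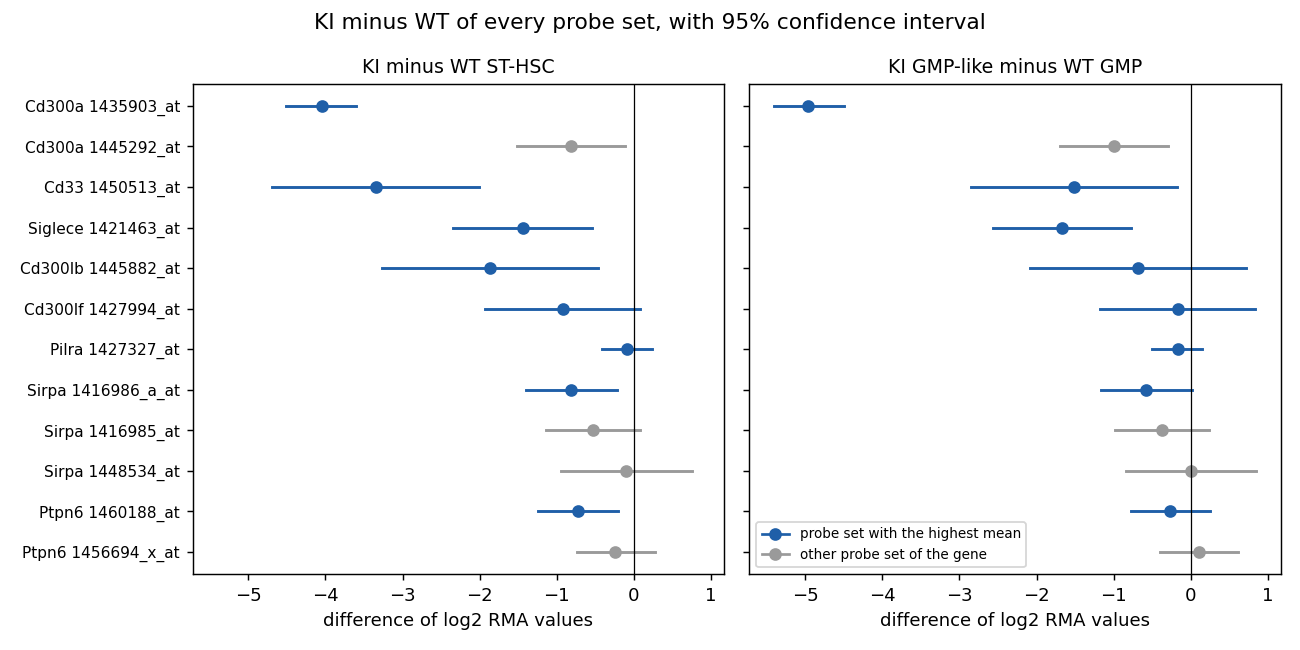
Difference of log2 RMA values, KI minus WT, of all 12 probe sets (horizontal axis) with its 95% confidence interval from limma, in ST-HSC on the left and GMP on the right, with lead probe sets in blue and other probe sets of the gene in grey. The Cd300a lead probe set stands at −4.05 and −4.96, Cd33 at −3.35 and −1.52, and no other probe set is below −1.86 in ST-HSC or −1.67 in GMP.

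Over the 7 measured members other than Cd300a, 1 was called lower in ST-HSC, where 1.68% of all genes were called lower, and 5 had an unadjusted p under 0.05, against 14.3% of all genes. In GMP 0 were called by limma, where 1.4% of all genes were called lower, and 2 had an unadjusted p under 0.05, against 15.9% of all genes. SAM, the method of the study but written anew here, called 0 of the 7 in either population. Over all probe sets it called 41 higher and 121 lower in ST-HSC and 12 higher and 31 lower in GMP. In ST-HSC the study reports fewer genes in each direction, so these calls are not the study's own. The KI values lay below the WT values without overlap in 5 of the 7 in ST-HSC, against 11.2% of all genes, and in 2 of the 7 in GMP (Siglece and Cd300lb), against 11.1% of all genes. Their median difference was −0.92 in ST-HSC and −0.58 in GMP, against −0.02 and −0.03 over all genes. All 7 differences were below 0 in both populations, against 52.5% of all genes in ST-HSC and 54.9% in GMP, although those of Cd300lf and Sirpa in GMP and of Pilra in ST-HSC turned to 0.03, 0.10 and 0.01 against the WT arrays of low Xist alone. No member was called for a difference between the populations, where 0.0495% of all genes were called. An unadjusted p under 0.05 for that difference was found for 0 of the 7, against 8.45% of all genes. The 7 genes were chosen with results of these samples known, so these counts are a description of the list.

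Other genes of inhibitory receptor signalling were followed in 5 lists with 43 measured genes. In ST-HSC, 4 of the 43 were lower and 0 higher in KI, where 1.68% of all genes were called lower and 1.33% higher. In GMP, 5 were lower and 2 higher, where 1.4% of all genes were called lower and 1.19% higher. An unadjusted p under 0.05 was found for 9 of the 43 in ST-HSC (20.9%, against 14.3% of all genes) and 15 in GMP (34.9%, against 15.9%), and SAM called 2 and 0. When only the 6 arrays of GMP were fitted, 0 of the 43 were called there. The median differences were −0.17 and −0.15. Among 14 other inhibitory receptors, 2 were lower in KI ST-HSC, and 3 were lower and 1 higher in KI GMP-like cells.

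Siglecf, an inhibitory Siglec known from eosinophils, was lower in both populations. It read 4.94, 3.77 and 4.65 in KI and 7.17, 7.02 and 7.53 in WT ST-HSC, a difference of −2.79 (adjusted p = 0.00389, limma). In GMP the values were 7.13, 7.07 and 6.27 in KI and 8.78, 10.11 and 9.43 in WT, a difference of −2.62 (adjusted p = 0.00742). The groups did not overlap in either population, and Siglecf kept its call in 22 of 24 alternative settings in each. Siglecg, the relative known from B cells, differed by −1.05 in ST-HSC (adjusted p = 0.181) and −0.52 in GMP (adjusted p = 0.561).

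Milr1 (Allergin-1), an ITIM receptor of mast cells, was lower by limma in both populations. Its means were 7.99 in KI and 9.84 in WT ST-HSC, a difference of −1.84 (adjusted p = 0.0285), and 7.31 in KI and 9.26 in WT GMP, a difference of −1.95 (adjusted p = 0.0260). It kept its call in 15 of 24 alternative settings in ST-HSC and in 14 of 24 in GMP. Clec4a2, an ITIM lectin of dendritic cells, was lower in KI GMP-like cells, with 4.0, 3.84 and 4.27 in KI and 6.61, 7.16 and 5.16 in WT. The difference was −2.27 (adjusted p = 0.0274, limma), called in 13 of 24 alternative settings. Filtering on low values removed Clec4a2, and a setting in which it was not tested counts as not called. In ST-HSC it was dim in both genotypes and differed by −0.61 (adjusted p = 0.648). By limma, 0 of the 43 genes of the 5 lists were called for the difference between the populations, where 0.0495% of all genes were called. An unadjusted p under 0.05 was found for 6 of them (14%), against 8.45% of all genes.

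Pecam1 (CD31), an ITIM adhesion receptor, went the other way. In GMP it read 9.46, 10.32 and 10.05 in KI and 8.43, 7.88 and 8.17 in WT, a difference of 1.79 (adjusted p = 0.0432, kept in 11 of 24 alternative settings). In ST-HSC all KI values were above all WT values as well, with a difference of 1.17 that did not pass the test (adjusted p = 0.197). Cd200r1, of the same list, also had all KI values above all WT values in GMP, with a difference of 1.73 (adjusted p = 0.0617, limma). It was called there in 3 of 24 alternative settings, and in ST-HSC it differed by 0.90 with overlap (adjusted p = 0.388). Fcgr2b, the inhibitory Fc receptor, had differences of −1.30 in ST-HSC (adjusted p = 0.397) and −2.13 in GMP (adjusted p = 0.109), although its protein belongs to the Fc gamma receptors by which GMP were sorted.

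Of 10 activating counterparts and adapters, only Tyrobp passed the test, as lower in KI, where 1.68% of all genes were called lower in ST-HSC and 1.4% in GMP. The study names Tyrobp as lower in both mutant populations, so its values are not independent evidence. It read 9.38, 9.17 and 9.16 in KI and 12.21, 12.12 and 12.33 in WT ST-HSC, a difference of −2.98, and kept its call there in 24 of 24 alternative settings. In GMP it read 11.60, 10.16 and 10.23 in KI and 12.30, 12.26 and 12.09 in WT, a difference of −1.56, which kept its call in 11 of 24. The adapter thus kept a value of at least 9.16 on every array. Fcer1g, the other adapter of activating myeloid receptors, differed by 0.32 in ST-HSC (adjusted p = 0.497) and 0.68 in GMP (adjusted p = 0.0803). Its KI values lay above the WT values in GMP alone.

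Downstream of the receptors, 0 of 8 phosphatases and docking proteins passed limma's test in either population. Over all genes, 1.68% were called lower and 1.33% higher in ST-HSC, and 1.4% and 1.19% in GMP. An unadjusted p under 0.05 was found for 0 of the 8 in ST-HSC, against 14.3% of all genes, and for 2 in GMP, against 15.9%. The 2 in GMP were Dok2, higher in KI (1.50, adjusted p = 0.0874, limma), and Pag1, lower in KI (−1.53, adjusted p = 0.163), both without overlap. Ptpn11 (SHP-2) differed by 0.20 in ST-HSC and −0.26 in GMP, and Inpp5d (SHIP-1) by −0.22 and 0.16, with no adjusted p under 0.545 for these 2 genes. Among 5 Src family kinases and Syk, Fyn was higher in KI GMP-like cells. It read 8.98, 8.62 and 9.57 in KI and 7.45, 7.57 and 7.66 in WT GMP, a difference of 1.50 (adjusted p = 0.0198, kept in 16 of 24 alternative settings), and differed by −0.03 in ST-HSC. Among 6 ligands, Cd24a, which encodes a sialylated protein bound by Siglecs, was lower in both populations, at 9.66 in KI and 12.13 in WT ST-HSC (−2.47, adjusted p = 0.00280) and at 9.18 in KI and 11.43 in WT GMP (−2.25, adjusted p = 0.00627). Cd47, the ligand of Sirpa, had group means of 12.61 to 12.87 and differed by 0.26 in ST-HSC (adjusted p = 0.397) and 0.09 in GMP (adjusted p = 0.837).

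**Figure D3:**
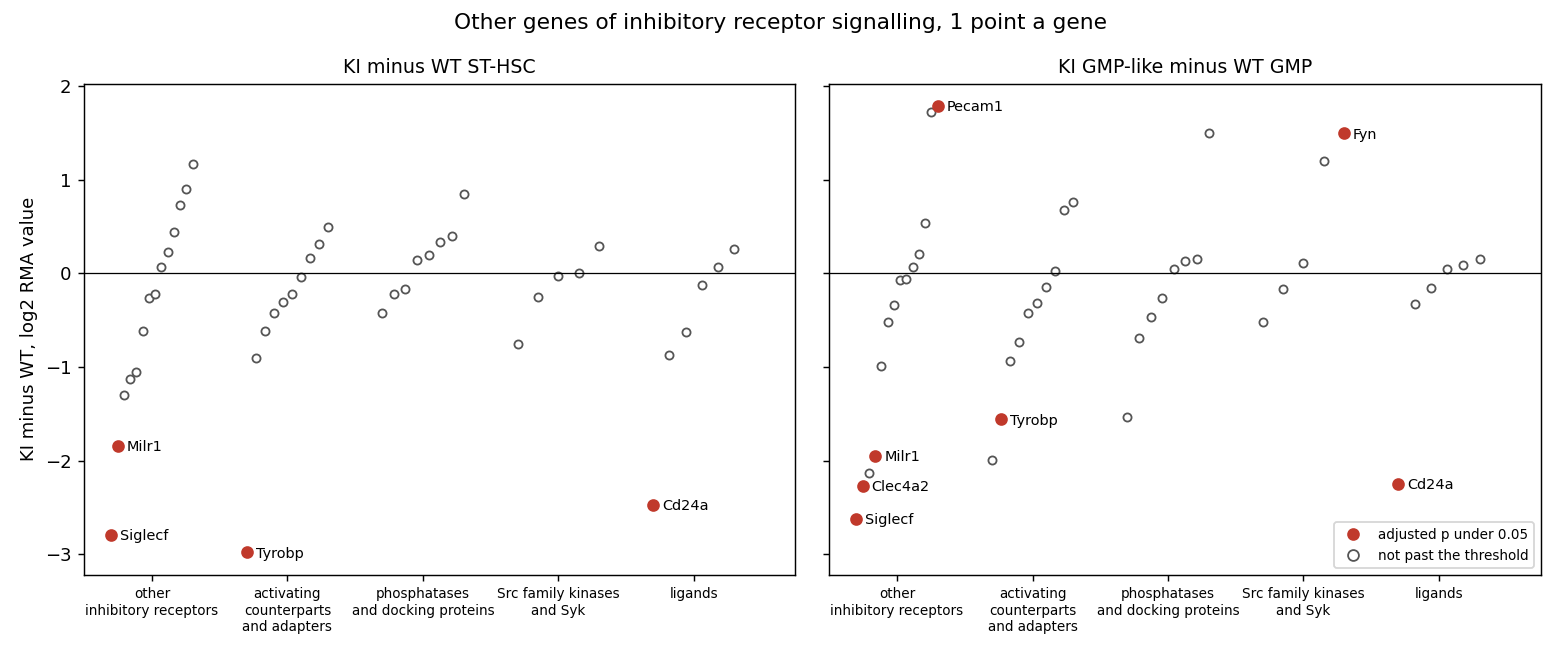
Difference of log2 RMA values, KI minus WT (vertical axis), of the 43 measured genes of 5 lists, 1 point per gene sorted within its list, in ST-HSC on the left and GMP on the right. Filled points passed an adjusted p under 0.05 and are named, and the phosphatases and docking proteins hold no filled point in either panel. Over all genes, 1.68% were called lower and 1.33% higher in ST-HSC, and 1.4% and 1.19% in GMP.

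Markers of other cell types moved in both directions. Over all genes, 1.68% were called lower in ST-HSC and 1.4% in GMP, and 14.3% and 15.9% had an unadjusted p under 0.05. Those of monocytes, macrophages and dendritic cells, which carry these receptors, were in part lower in the KI cells. The mean level of 10 monocyte and macrophage markers was 4.32 to 4.67 on the KI and 5.84 to 6.16 on the WT ST-HSC arrays, and 4.55 to 4.91 on the KI and 5.46 to 5.63 on the WT GMP arrays. Of these 10, 3 were called lower in ST-HSC (Csf1r, Ccr2 and Fcgr1) and 1 in GMP (Csf1r), whereas Vsig4, Mertk and C1qa had group means of at most 4.92 in every group. For 7 dendritic cell markers the mean level was 5.21 to 5.50 in KI and 6.46 to 7.92 in WT ST-HSC, and 4.60 to 4.61 in KI and 4.97 to 5.26 in WT GMP, with 2 called lower in ST-HSC and, by limma, 0 in GMP, where 2 had an unadjusted p under 0.05. The mean level of 9 neutrophil markers overlapped, at 8.46 to 9.20 in KI and 8.38 to 9.65 in WT ST-HSC and at 9.72 to 10.91 in KI and 10.35 to 10.51 in WT GMP. By limma 0 of the 9 were called in ST-HSC, where 2 had an unadjusted p under 0.05. In GMP the granule protein Ltf was called lower, at 4.26 in KI and 5.69 in WT (−1.43, adjusted p = 0.0127). Elane and Prtn3, proteases of the primary granules, were below WT without overlap in KI GMP-like cells and were not called, with differences of −1.61 (adjusted p = 0.0865) and −1.10 (adjusted p = 0.112).

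Other lists held markers that were higher in the KI cells, where 1.33% of all genes were called higher in ST-HSC and 1.19% in GMP. In GMP 15.9% of all genes had an unadjusted p under 0.05. Of 7 mast cell and basophil markers, 3 were called higher in ST-HSC, namely Cpa3 (2.69), Mcpt8 (1.57) and Gata2 (1.86). In GMP, Cpa3 (1.57) and Cma1 (2.87) were called higher and Ms4a2, the beta chain of the IgE receptor, was called lower (−5.21). The mean level of this list was 7.19 to 7.56 on the KI and 6.04 to 7.39 on the WT ST-HSC arrays, and 7.41 to 8.45 on the KI and 7.38 to 7.89 on the WT GMP arrays, so that the groups overlapped. Of 6 megakaryocyte markers, Pf4 (3.49) and Gp1bb (1.72) were higher in ST-HSC and Gp1bb (2.86) in GMP. Of 6 erythroid markers, Alas2 (0.97) and Rhag (1.38) were higher in ST-HSC and, by limma, 0 in GMP, where 1 had an unadjusted p under 0.05. Nkg7 in ST-HSC (1.62) and Cd3g in GMP (2.23) were the T and NK cell markers called, both higher. Of 6 B lymphoid markers, Cd79b was lower in both populations (−2.29 in ST-HSC and −2.12 in GMP) and Vpreb1 in ST-HSC (−4.21). Among 5 hepatocyte markers, Afp was lower in both (−1.53 and −1.92). The part of these markers in the result was not tested.

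The genes whose pattern was most like that of Cd300a were ranked by Pearson's r with it over the 12 arrays, after the mean of each population was subtracted. The first 5 were Tfec, a transcription factor of macrophages (r = 0.995), Ms4a3, a membrane protein of granulocyte-monocyte progenitors (0.992), Tifab, an adapter that dampens TRAF6 signalling (0.989), the chemokine Ccl9 (0.988) and Ms4a6b, another membrane protein of the Ms4a family (0.986). The study lists all 5, like Cd300a, among the genes changed in GMP-like cells, so they are not independent of that list. Their differences ranged from −2.59 for Ccl9 to −6.32 for Ms4a6b in ST-HSC, and from −3.06 for Ccl9 to −6.83 for Ms4a3 in GMP. The members lay lower on this scale, with r of 0.88 for Siglece, 0.795 for Cd33, 0.761 for Sirpa, 0.641 for Ptpn6, 0.576 for Cd300lb, 0.486 for Pilra and 0.426 for Cd300lf. All points of such an r share the split of KI and WT arrays, so that it mostly restates a wide and even gap between the genotypes.

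**Figure D4:**
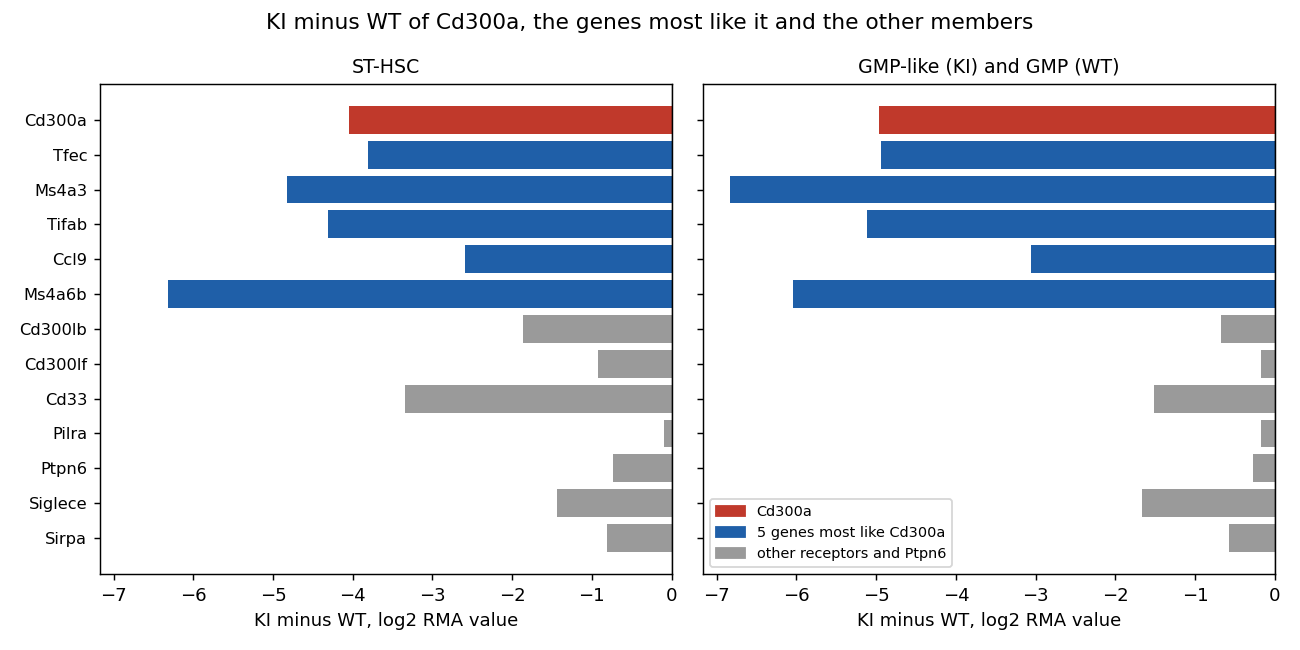
Difference of log2 RMA values, KI minus WT (horizontal axis), of Cd300a in red, of the 5 genes most like it in blue and of the 7 other members in grey, in ST-HSC on the left and GMP on the right. The blue bars run from −2.59 to −6.32 in ST-HSC and from −3.06 to −6.83 in GMP, and among the grey bars Cd33 in ST-HSC (−3.35) is the longest.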

How the data were processed

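RNA of FACS-sorted cells was extracted with the RNeasy Micro kit, amplified with the Ovation Pico system, labelled with biotin and hybridized to Affymetrix MG430 v2 arrays, 1 per sample. The authors normalized the arrays with RMA (version not stated) in R-Bioconductor, and the table they deposited holds log2 RMA values for 45101 probe sets. Arrays have no read depth, so precision is limited by their number.

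After removal of 64 control probe sets, 45037 were tested, dim ones included. The platform annotation gives 34945 of these 1 gene symbol, 932 several and 9160 none, and only those with 1 were named. KI minus WT was fitted with limma 3.58.1 in R 4.3.3 on all 12 arrays with 4 group means (8 residual and 2.52 prior degrees of freedom). A call is an adjusted p under 0.05, with Benjamini-Hochberg adjustment over all probe sets. With 3 against 3 arrays an exact permutation test of 1 gene cannot go below 0.1. The fit was tested on simulated data.

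Named genes are all members with every probe set, pathway genes that were called or whose value a sentence needs, and the 5 genes most like Cd300a. The members and the gene lists were chosen with earlier results of these data known. Settings varied were the arrays in the fit, the scaling, filters, the prior, the replicate number as a block, Xist, the probe sets used per gene, a log2 limit and SAM, written anew after its published form.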

Additional observations from a re-analysis of the deposited data

How the results depend on the processing

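The differences of Cd300a lay between −3.82 and −4.20 in ST-HSC and between −4.90 and −5.04 in GMP when any 1 array was left out, and became −2.44 and −2.97 with all probe sets of the gene averaged. The count of members called in ST-HSC, 1 (Cd33), was 2 with Xist as a covariate (Cd300lb added) and 0 by SAM. It ranged from 0 to 2 when any 1 array was left out. In GMP the count of 0 became 1 (Siglece) with either filter on low values, 1 with the replicate block and 1 with all probe sets averaged, and ranged from 0 to 2 when any 1 array was left out. Deviations of same-numbered KI and WT arrays correlated at 0.0343 to 0.0742 in ST-HSC and −0.0381 to −0.00398 in GMP, so no pairing of KI with WT was seen. Between the populations, same-numbered arrays correlated at 0.0618 to 0.164 in WT and −0.1 to 0.0346 in KI. Whether these share animals or pools was not tested. The fit, also for the difference between the populations, treats all arrays as independent. The block changed the call of no other member. Without the WT arrays of high Xist the gaps of Cd300lb differed by 2.92 between the populations, a value that rests on 1 WT array in each.

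Pathway genes called in ST-HSC, 4, were 2 by SAM. In GMP, 7 became 0 with only the 6 arrays of the population and 0 by SAM, 3 with Xist as a covariate and 3 at a log2 difference over 2. The count there ranged from 2 to 10 when any 1 array was left out. The sign turned for Cd300lf in GMP to 0.35 with Xist as a covariate and 0.03 without the WT arrays of high Xist, with a range of −0.36 to 0.12 when any 1 array was left out, and without the WT arrays of high Xist for Pilra in ST-HSC (0.01) and Sirpa in GMP (0.10). The causes were not tested. Without the WT arrays of high Xist there was 1 WT array per population, which is assumed to vary like the other groups. The fit of that setting took its spread from those groups, and it counts among the alternative settings.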
